A study of Mus musculus with 12 samples.

Results

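The genes described here are 36 genes of glycolysis and of the response to low oxygen, chosen by symbol. They comprise 2 glucose transporters, 9 enzymes of upper glycolysis with 2 regulators of its flux, and 8 enzymes of lower glycolysis. The others are 4 enzymes that decide the fate of pyruvate, 2 lactate transporters, 7 hypoxia-induced genes and 2 alpha subunits of hypoxia-inducible factor (HIF). In the deposited table the 36 symbols correspond to 37 of 54446 gene identifiers, because Aldoa has a second, low-abundance identifier, and all 37 were among the 16097 identifiers that passed the filter on low values. Poly(A) RNA was sequenced from E14 cells, a mouse embryonic stem cell line, in 12 libraries, 3 for each of the 4 populations. The mESC population, not differentiated, was grown in serum with LIF on irradiated mouse embryonic fibroblasts. The other groups are differentiated progeny of these cells sorted by reporter signal into T+, SOX17+/T+ and SOX17+ populations, where T (Brachyury) marks primitive streak and nascent mesoderm and SOX17 marks endoderm. The agents, duration and oxygen level of the differentiation are not stated in the labels used here, and all groups are labelled as the same line. The labels describe the sorting as by reporter expression, without naming the reporters or saying whether the mESC libraries carry them. Whether the 3 libraries of a group are separate cultures is not said in the labels, so the p-values reflect only how far these libraries spread, which may be technical.

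Glycolysis splits glucose into pyruvate in the cytosol, and lactate dehydrogenase then turns pyruvate into lactate while restoring the NAD+ that glycolysis uses. Glucose enters through GLUT transporters and lactate leaves through MCT transporters. Pluripotent and early embryonic cells are known for high glycolysis, and the pathway is also used by presomitic mesoderm. Many of its genes are targets of HIF: in oxygen, prolyl hydroxylases (EGLN proteins) mark the HIF alpha subunits for breakdown, and without oxygen the alpha subunits accumulate, pair with ARNT and bind a short DNA element in target genes. HIF alpha activity is set largely at the protein level, which RNA does not measure.

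Levels are in TPM, transcripts corrected for length and scaled so that all libraries have one total, so the depth behind a value is unknown. Changes are differences of mean log2(TPM + 1) ± limma's standard error, and this scale understates changes of genes near or below 1 TPM. The error of a gene uses the same spread for all groups, while many members varied less in mESC than in the sorted groups. Errors between sorted groups may therefore be understated. The threshold for a call was a limma p under 0.05 after Benjamini-Hochberg adjustment over all tested genes, and only called genes are said to rise or fall. The sorted labels matched their markers: 9 naive pluripotency genes summed to between 2070 and 2084 TPM in mESC and to between 54.5 and 77.2 TPM in the sorted libraries. Sums over 9 streak and mesoderm markers ran from 432 to 514 TPM in T+, 170 to 223 in SOX17+/T+ and 40.2 to 54.6 in SOX17+. Over 10 definitive endoderm markers they ran in the opposite order, from 517 to 627, 1542 to 1573 and 1990 to 2119 TPM. Krt8 and Krt18 had the highest means of this list in each sorted group, at 662 and 823 TPM in SOX17+. Cxcr4 went the other way, with means of 65.1, 53.4 and 37.2 TPM in T+, SOX17+/T+ and SOX17+, and Cer1 was highest in SOX17+/T+ (14.2 TPM). The streak list includes T and the endoderm list includes Sox17, the genes that name the sorted groups. Their part of the match may therefore follow from the sort itself. T means were 127, 44.5 and 2.32 TPM in T+, SOX17+/T+ and SOX17+, and Sox17 means were 10.3, 139 and 230 TPM. Markers of other cells also moved with the groups. The 14 feeder fibroblast markers summed to between 4928 and 5899 TPM in mESC, where all 14 were detected at 1 TPM or more, and to between 432 and 769 TPM in the sorted libraries, where S100a4 was at 0 in every SOX17+/T+ and SOX17+ library. The 8 primitive blood markers summed to between 103 and 241 TPM in SOX17+, against 5.16 to 24.0 TPM in the other sorted libraries, and Hbb-y was at 0 in every library outside SOX17+. The 10 dissociation stress genes, such as Fos, Junb and Atf3, summed to between 551 and 615 TPM in mESC and to between 118 and 147 TPM in the sorted libraries. Within this list Jun went the other way, with means of 18.4 TPM in mESC and 32.5, 39.1 and 29.1 TPM in T+, SOX17+/T+ and SOX17+. In bulk RNA, fewer cells of a type and less RNA per cell cannot be told apart, and the part of these markers in the results was not tested.

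Most of the genes stood higher in each sorted group than in mESC. In T+ cells 28 of 37 rose and 6 fell, where 34.5% of all tested genes rose and 49.5% fell. In SOX17+/T+ cells 27 rose and 4 fell, against 34.9% and 50.3% of all tested genes. In SOX17+ cells 29 rose and 5 fell, against 35.4% and 50.0%. The median change of the members was 0.98 in T+, 1.33 in SOX17+/T+ and 1.22 in SOX17+, while the median over all tested genes was -0.17, -0.19 and -0.18. The 3 comparisons use the same mESC libraries and are not independent. The all-gene medians moved to -0.04, -0.03 and -0.03 under median-of-ratios scaling and to 0.07, 0.06 and 0.05 under quantile normalization. The share of calls that were rises was 41.0%, 40.9% and 41.5% as deposited, 47.9%, 48.4% and 48.5% after median-of-ratios scaling and 53.4%, 53.2% and 52.4% after quantile normalization. Changes from mESC depend on the scaling, and those of abundant enzymes such as Gapdh, Eno1 and Pkm moved by more than these medians did. They are named where the scaling ended a call.

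In all 3 comparisons with mESC, the same 25 identifiers rose, Hk1, Hk2, Pfkp and Pgam2 fell, and Ankrd37 was not called. The other 7 differed in call between the groups: Epas1, Hif1a, Ldhb, Pdk1, Pdk3, Pfkfb4 and Vegfa. Together the 19 enzymes from hexokinase to lactate dehydrogenase made up 1.27% ± 0.017 of all TPM in mESC, 2.49% ± 0.15 in T+, 2.65% ± 0.21 in SOX17+/T+ and 2.38% ± 0.15 in SOX17+ (mean ± SD, n = 3). The sorted groups overlapped in this sum and all lay above mESC. The 4 transporters separated the sorted groups: they made up 0.0765% ± 0.00059 of all TPM in mESC, 0.154% ± 0.018 in T+, 0.365% ± 0.050 in SOX17+/T+ and 0.602% ± 0.043 in SOX17+.

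**Figure D1:**
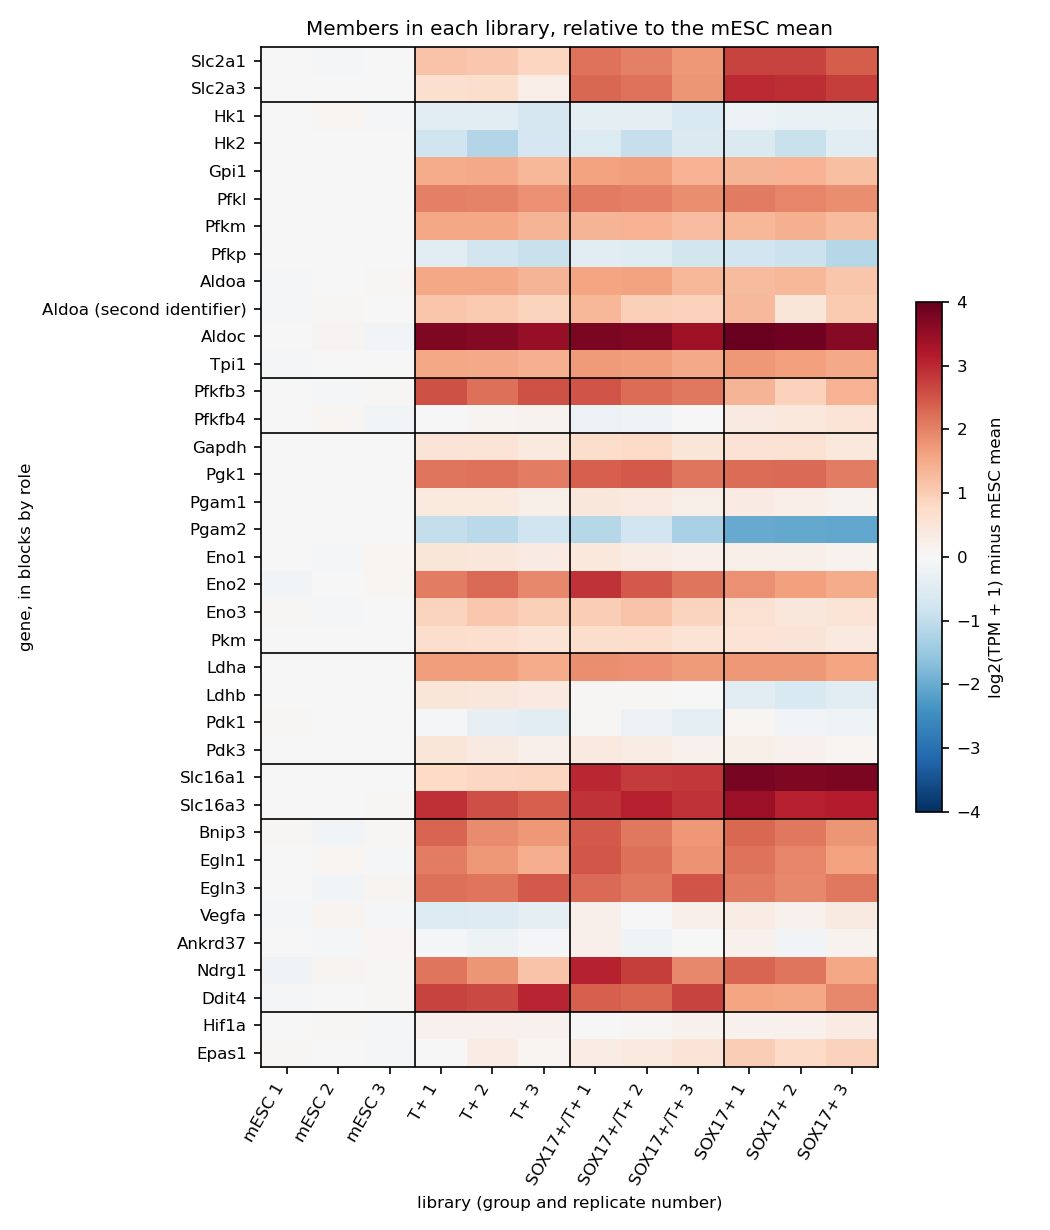
Heat map of log2(TPM + 1) minus the mESC mean for the 37 identifiers (rows, in blocks by role) in the 12 libraries (columns), with red for higher and blue for lower. Transporters and Slc16a1 deepen from T+ to SOX17+, Hk1, Hk2, Pfkp and Pgam2 are blue in every sorted library, and most enzymes are evenly red.

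The DNA before the start sites of these genes was read from RefSeq (GRCm38.p6) to show the letters that HIF recognizes. The core of the hypoxia response element is ACGTG or GCGTG, searched on both strands over the 250 bases before each start, so that a CACGTG, the E-box letters that MYC and carbohydrate-response factors also read, counts as ACGTG once on each strand. Of the 36 genes, 33 had at least 1 window and 47 windows in all, while Slc2a3, Ndrg1 and Epas1 had none. ACGTG was found in 22 of the 47 windows (46.8%) and in 5444 of the 32851 windows of all genes (16.6%). Counted by gene, 19 of 33 members (57.6%) had it, against 18.5% of all genes, and 29 of 33 (87.9%) had ACGTG or GCGTG, against 41.5%. The member windows were also richer in G and C, with a median of 60.4% against 52.4%, and both cores hold a CG. A match is a description of these letters and not a bound site. Ldha has 2 windows: the one printed below held ACGTG 5 times, a count reached by 44 windows of all genes, and the other (chr7:46846832-46847081) held none and GCGTG 1 time. The 6 stretches below were chosen to set 4 genes that rose in every sorted group (Ldha, Pgk1, Slc16a1 and Bnip3) beside Hk2, which has the letters and fell, and Eno2, which lacks them and rose. They are written 5′ to 3′ on the strand of the gene, ending before the start site, without bases that lie in annotated exons, and capitals mark ACGTG or GCGTG on either strand. The Ldha start used for the printed window lies inside the span that the table gives for Ldha, and its first transcribed bases lie in no GENCODE transcript of the gene, while those of the other window do. The first transcribed bases of the printed Slc16a1 window also lie in no GENCODE transcript of that gene. Such a match was found for 35 of the 47 member windows.
Ldha (chr7:46845554-46845803, plus strand): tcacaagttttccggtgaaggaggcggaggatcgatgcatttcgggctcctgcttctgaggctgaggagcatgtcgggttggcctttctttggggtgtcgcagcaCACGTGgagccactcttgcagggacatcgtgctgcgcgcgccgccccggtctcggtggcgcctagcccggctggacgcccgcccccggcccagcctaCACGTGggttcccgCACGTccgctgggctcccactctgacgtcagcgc
Pgk1 (chrX:106186850-106187099, plus strand): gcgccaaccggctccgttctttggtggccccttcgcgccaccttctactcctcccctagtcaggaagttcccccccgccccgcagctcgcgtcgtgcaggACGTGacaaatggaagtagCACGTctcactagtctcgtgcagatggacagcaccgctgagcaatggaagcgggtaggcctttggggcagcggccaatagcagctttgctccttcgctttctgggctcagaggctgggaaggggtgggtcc
Slc16a1 (chr3:104638414-104638663, plus strand): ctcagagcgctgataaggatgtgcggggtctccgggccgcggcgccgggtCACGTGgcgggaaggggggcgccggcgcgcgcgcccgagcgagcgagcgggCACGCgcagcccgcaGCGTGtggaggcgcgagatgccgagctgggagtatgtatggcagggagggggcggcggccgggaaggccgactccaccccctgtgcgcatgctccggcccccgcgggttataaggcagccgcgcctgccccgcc
Bnip3 (chr7:138909520-138909756, minus strand): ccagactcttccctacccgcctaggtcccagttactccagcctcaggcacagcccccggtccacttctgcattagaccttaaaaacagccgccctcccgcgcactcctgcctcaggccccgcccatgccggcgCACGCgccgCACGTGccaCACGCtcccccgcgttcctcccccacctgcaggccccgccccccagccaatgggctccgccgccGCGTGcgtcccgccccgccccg
Hk2 (chr6:82774455-82774704, minus strand): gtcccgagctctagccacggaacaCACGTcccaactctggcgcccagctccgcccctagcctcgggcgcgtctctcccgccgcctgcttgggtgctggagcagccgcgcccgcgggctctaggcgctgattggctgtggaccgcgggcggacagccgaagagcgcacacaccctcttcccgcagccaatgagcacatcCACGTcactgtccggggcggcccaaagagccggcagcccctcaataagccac
Eno2 (chr6:124769674-124769862, minus strand): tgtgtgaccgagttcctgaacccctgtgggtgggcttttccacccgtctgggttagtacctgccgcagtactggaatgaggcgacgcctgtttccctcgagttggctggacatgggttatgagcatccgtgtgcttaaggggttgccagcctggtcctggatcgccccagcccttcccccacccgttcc

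Both glucose transporters rose in steps from mESC through T+ and SOX17+/T+ to SOX17+. Slc2a1 (ENSMUSG00000028645.11, chromosome 4, 119108711 to 119137983, GRCm38) encodes GLUT1, the transporter of basal glucose uptake. It stood at 268, 260 and 271 TPM in mESC, 584, 567 and 489 in T+, 1192, 1089 and 883 in SOX17+/T+ and 1754, 1740 and 1418 in SOX17+. No 2 groups overlapped. The changes were 1.03 ± 0.12 from mESC to T+ (adjusted p = 1.3e-05), 0.94 ± 0.12 from T+ to SOX17+/T+ (0.00023) and 0.64 ± 0.12 from there to SOX17+ (0.002). Slc2a3 (ENSMUSG00000003153.10, chromosome 6, 122727809 to 122801640) encodes GLUT3, a high-affinity transporter of neurons and early embryos. Its libraries stood at 369, 366 and 356 TPM in mESC, 571, 592 and 433 in T+, 1792, 1658 and 1228 in SOX17+/T+ and 2859, 2844 and 2505 in SOX17+. Here too the groups did not overlap, and the T+ libraries came nearest to mESC. The rise over mESC was 0.53 ± 0.15 in T+ (adjusted p = 0.0092) and 2.90 ± 0.15 in SOX17+ (4.9e-08), and SOX17+ stood 2.37 ± 0.15 above T+ (9.5e-07). As TPM means, SOX17+ cells had 2.99 times the Slc2a1 and 5.14 times the Slc2a3 of T+ cells. The share of Slc2a3 in the sum of both was 57.7% ± 0.85 in mESC, 49.1% ± 2.1 in T+, 59.5% ± 1.2 in SOX17+/T+ and 62.6% ± 1.1 in SOX17+. The T+ group was the only one in which Slc2a1 made up more of the mean sum than Slc2a3.

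**Figure D2:**
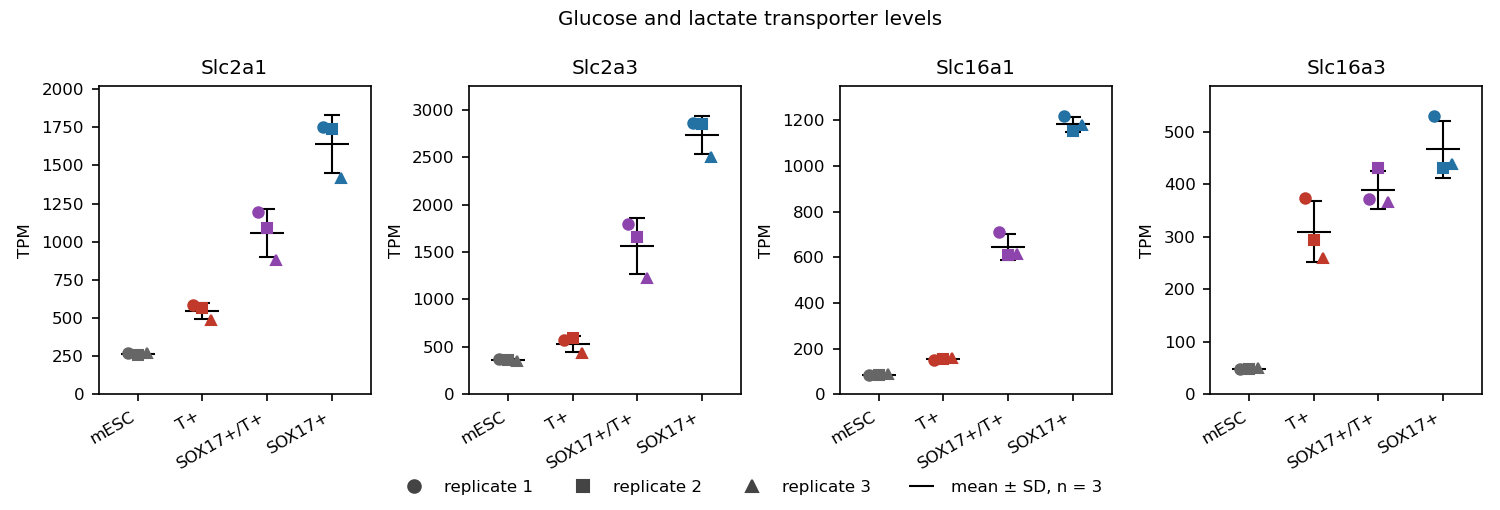
TPM of the glucose transporters Slc2a1 and Slc2a3 and the lactate transporters Slc16a1 and Slc16a3 in each library (points, shaped by replicate number), with the group mean and SD as bars. Slc2a1, Slc2a3 and Slc16a1 climb without overlap from mESC to SOX17+. Slc16a3 is far above mESC in T+ as well, where it overlaps SOX17+/T+, and its SOX17+ libraries lie above those of T+.

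The enzymes of upper glycolysis split by isozyme. Of the 10 identifiers 7 rose and 3 fell in every sorted group. Hexokinase, which traps glucose as glucose 6-phosphate, fell in both forms. Hk2, the inducible form at the mitochondrial surface, stood at 106, 106 and 109 TPM in mESC, 60.5, 47.2 and 66.6 in T+, 72.4, 55.7 and 71.0 in SOX17+/T+ and 71.4, 56.6 and 78.6 in SOX17+. All sorted libraries were below all mESC libraries and the sorted groups overlapped, with falls of 0.88 ± 0.15, 0.69 ± 0.15 and 0.64 ± 0.15 (adjusted p = 0.0002, 0.0012 and 0.0019). Hk1, the constitutive form, lay between 32.9 and 35.7 TPM in mESC and between 21.0 and 28.6 TPM in the sorted libraries. Its fall of 0.26 ± 0.08 in SOX17+ cells was no longer called with median-of-ratios scaling (adjusted p = 0.24) or quantile normalization (0.58), while its falls in T+ (0.51 ± 0.08) and SOX17+/T+ (0.45 ± 0.08) stayed called.

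Phosphofructokinase, the committed step of the pathway, changed its make-up. Pfkl, the liver-type subunit, stood at 71.3, 74.1 and 72.7 TPM in mESC and between 259 and 308 TPM in the 9 sorted libraries. It rose by 1.94 ± 0.06 in T+, 1.98 ± 0.06 in SOX17+/T+ and 1.97 ± 0.06 in SOX17+ (adjusted p = 7.2e-12, 6e-12 and 6.1e-12), and no sorted group differed from another past the threshold. Pfkm, the muscle-type subunit, rose from between 19.2 and 20.0 TPM to between 47.6 and 59.4 TPM. Pfkp, the platelet-type subunit, went from 78.0, 77.6 and 75.8 TPM in mESC to 56.2, 46.1 and 41.2 in T+, 57.2, 55.0 and 45.8 in SOX17+/T+ and 45.4, 42.5 and 34.6 in SOX17+. No sorted library reached the mESC range, and the falls were 0.69 ± 0.12, 0.55 ± 0.12 and 0.91 ± 0.12 (adjusted p = 0.00021, 0.0012 and 2e-05), the fall in SOX17+/T+ not being called under quantile normalization (adjusted p = 0.11). The share of Pfkp in the phosphofructokinase sum was 45.5% ± 0.60 in mESC and 12.3% ± 1.2, 13.3% ± 0.56 and 10.7% ± 0.77 in T+, SOX17+/T+ and SOX17+. The share of Pfkl went from 42.9% ± 0.59 to 73.0% ± 0.92, 73.8% ± 0.35 and 75.8% ± 0.84, so that in mESC Pfkl and Pfkp were nearly level and in every sorted library Pfkl led.

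Glucose phosphate isomerase, aldolase and triose phosphate isomerase rose together. Gpi1, which turns glucose 6-phosphate into fructose 6-phosphate, was between 277 and 282 TPM in mESC and between 647 and 885 TPM in the sorted libraries, with changes of 1.44 ± 0.07 in T+, 1.55 ± 0.07 in SOX17+/T+ and 1.32 ± 0.07 in SOX17+. Aldoa, the main aldolase, which splits fructose bisphosphate, stood at 1589, 1631 and 1674 TPM in mESC, 4735, 4721 and 4185 in T+, 4883, 4938 and 4107 in SOX17+/T+ and 3909, 4073 and 3488 in SOX17+. SOX17+ libraries were the lowest of the sorted ones, below all T+ and SOX17+/T+ libraries. The rise over mESC was 1.48 ± 0.08, 1.50 ± 0.08 and 1.23 ± 0.08 (adjusted p = 2.5e-08, 2.1e-08 and 1.2e-07). The second Aldoa identifier, which lies directly upstream on chromosome 7, ran from 0.760 to 0.915 TPM in mESC and from 1.57 to 3.64 TPM in the sorted libraries. Tpi1, which interconverts the triose phosphates, was between 359 and 373 TPM in mESC and between 977 and 1215 TPM after sorting, with changes of 1.49 ± 0.06 to 1.63 ± 0.06.

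Aldoc, the brain-type aldolase, had the largest rise of the 37 in T+ and in SOX17+/T+ cells and also in SOX17+ cells. Its libraries stood at 4.61, 5.11 and 4.18 TPM in mESC, 73.9, 71.3 and 61.8 in T+, 75.1, 71.6 and 58.3 in SOX17+/T+ and 86.4, 82.2 and 69.3 in SOX17+. All sorted libraries lay far above mESC and overlapped among themselves, with rises of 3.63 ± 0.11, 3.62 ± 0.11 and 3.83 ± 0.11 (adjusted p = 6.4e-12, 6.8e-12 and 3.7e-12). It remained a minor aldolase: its share of aldolase TPM was 0.283% ± 0.032 in mESC, 1.49% ± 0.042 in T+, 1.45% ± 0.059 in SOX17+/T+ and 2.03% ± 0.12 in SOX17+.

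The 2 regulators make or remove fructose 2,6-bisphosphate, the activator of phosphofructokinase. Pfkfb3, the form that mainly makes it, stood at 6.94, 6.74 and 7.29 TPM in mESC, 45.2, 36.1 and 45.4 in T+, 45.1, 36.8 and 33.6 in SOX17+/T+ and 19.4, 14.2 and 19.9 in SOX17+. The SOX17+ libraries lay between mESC and the other sorted libraries with no overlap. Pfkfb3 rose by 2.43 ± 0.14 in T+ (adjusted p = 3.3e-09) and by 1.22 ± 0.14 in SOX17+ (2.7e-06), and was 1.21 ± 0.14 lower in SOX17+ than in T+ (1e-05) and 1.07 ± 0.14 lower than in SOX17+/T+ (6.7e-05). Pfkfb4 was low throughout, at 1.23 to 1.57 TPM in mESC, 1.43 to 1.67 in T+, 1.07 to 1.42 in SOX17+/T+ and 2.12 to 2.57 in SOX17+. It was called higher in SOX17+ than in each other group, by 0.45 ± 0.09 over mESC (adjusted p = 0.00031), 0.36 ± 0.09 over T+ (0.0034) and 0.58 ± 0.09 over SOX17+/T+ (0.0002). Under quantile normalization its uncalled changes from mESC became called rises, from 0.09 to 0.43 in T+ (adjusted p = 0.00057) and from -0.13 to 0.23 in SOX17+/T+ (0.026).

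Of the 8 lower glycolysis enzymes 7 rose in each sorted group, by very different amounts. Pgk1, which makes the first ATP of the pathway, stood at 420, 433 and 434 TPM in mESC, 1898, 1941 and 1762 in T+, 2248, 2350 and 1896 in SOX17+/T+ and 2031, 2073 and 1781 in SOX17+. The sorted groups overlapped and lay at over 4 times the mESC level, with rises of 2.12 ± 0.08, 2.33 ± 0.08 and 2.19 ± 0.08 (adjusted p = 4.5e-10, 2e-10 and 3.3e-10). Gapdh, the step before it and often used as a reference gene, stood at 3247, 3265 and 3280 TPM in mESC, 4620, 4816 and 4244 in T+, 5304, 5552 and 4601 in SOX17+/T+ and 4849, 4929 and 4331 in SOX17+. It lay above mESC in every sorted library as deposited, by 0.48 ± 0.07, 0.65 ± 0.07 and 0.52 ± 0.07. Under quantile normalization none of these was called, with changes of 0.00074, 0.12 and 0.037 (adjusted p = 0.99, 0.085 and 0.59).

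Phosphoglycerate mutase and enolase moved less at their main forms. Pgam1 was between 717 and 725 TPM in mESC and between 793 and 981 TPM in sorted libraries, with rises of 0.34 ± 0.06 in T+, 0.36 ± 0.06 in SOX17+/T+ and 0.24 ± 0.06 in SOX17+. Pgam2, the muscle form, stood at 4.25, 4.23 and 4.28 TPM in mESC, 1.71, 1.48 and 2.03 in T+, 1.37, 2.07 and 1.15 in SOX17+/T+ and 0.288, 0.264 and 0.235 in SOX17+. It fell in every sorted group and SOX17+ lay below all other libraries, 2.06 ± 0.12 under mESC (adjusted p = 1.3e-09) and 1.11 ± 0.12 under T+ (2.9e-06). The 8 striated muscle markers summed to 23.1 to 26.4 TPM in mESC and 4.27 to 6.99 TPM in the sorted libraries. Acta1 made up most of these sums, with means of 18.5 TPM in mESC and 5.16, 3.74 and 4.24 in T+, SOX17+/T+ and SOX17+. Ckm and Myog were at 0 in all sorted libraries and at means of only 0.216 and 0.159 TPM in mESC. The part of these markers in the Pgam2 values was not tested.

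Eno1, the ubiquitous enolase, stood at 1897, 1765 and 1990 TPM in mESC, 2634, 2603 and 2377 in T+, 2538, 2316 and 2174 in SOX17+/T+ and 2204, 2184 and 2058 in SOX17+. The means stepped down from T+ to SOX17+, with all sorted libraries above mESC, and the rises were 0.43 ± 0.06, 0.31 ± 0.06 and 0.19 ± 0.06 (adjusted p = 4.7e-05, 0.00058 and 0.013). Quantile normalization ended these calls and gave 0.038, -0.11 and -0.14, so the direction of Eno1 in SOX17+/T+ and SOX17+ depends on the scaling. Leaving out mESC replicate 2 also ended the call in SOX17+. Eno2, the neuronal enolase, rose from 1.81, 2.02 and 2.19 TPM in mESC to 11.4, 13.5 and 10.4 in T+, 21.5, 15.3 and 12.2 in SOX17+/T+ and 9.68, 8.39 and 7.34 in SOX17+. SOX17+ was the lowest sorted group without overlap, and the rises over mESC were 2.08 ± 0.16, 2.50 ± 0.16 and 1.65 ± 0.16 (adjusted p = 9.4e-08, 1.5e-08 and 9.3e-07). The neural marker list, which includes Eno2, went the other way, from 120 to 130 TPM in mESC to 11.9 to 25.6 TPM in the sorted libraries. Eno3, the muscle enolase, was between 32.6 and 35.2 TPM in mESC, 63.2 and 72.7 in T+, 64.0 and 75.9 in SOX17+/T+ and 46.9 and 51.8 in SOX17+.

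Pkm, pyruvate kinase, the last step, stood at 2128, 2140 and 2150 TPM in mESC, 3465, 3402 and 3136 in T+, 3518, 3505 and 3156 in SOX17+/T+ and 3158, 3087 and 2832 in SOX17+. Every sorted library was above mESC, with rises of 0.64 ± 0.05, 0.66 ± 0.05 and 0.50 ± 0.05 (adjusted p = 1.7e-07, 1.2e-07 and 1.8e-06). The rise in SOX17+ was 0.090 and not called under quantile normalization (adjusted p = 0.081). Gene-level TPM does not separate the PKM1 and PKM2 isoforms.

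Several of these enzymes have near-identical copies in the genome, and reads can be split between them. Pgk1-rs7 was listed at 20.8%, 20.7%, 20.4% and 20.9% of the Pgk1 mean in mESC, T+, SOX17+/T+ and SOX17+. Pgam1-ps2 was listed at 45.6%, 44.9%, 45.3% and 45.3% of Pgam1, and Eno1b at 38.6%, 39.4%, 41.3% and 42.5% of Eno1. These ratios were nearly the same in every group, so the levels of Pgk1, Pgam1 and Eno1 are uncertain by these amounts. Ldha-ps2 reached 4.13 to 14.2 TPM, Pgam1-ps1 3.29 to 5.04, Aldoart1 1.19 to 3.38, Gapdh-ps15 0.971 to 1.46 and Ldha-ps 0.360 to 1.30 as group means, and Ldhal6b was at 1.18 TPM in mESC and under that in the sorted groups. When copies were added to their member, all 222 calls (37 identifiers in 6 comparisons) stayed on the same side of the threshold.

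Lactate dehydrogenase shifted towards its A form. Ldha, which favours lactate production, stood at 1442, 1481 and 1478 TPM in mESC, 4641, 4704 and 4122 in T+, 5369, 5245 and 4748 in SOX17+/T+ and 4929, 4881 and 4411 in SOX17+. Sorted libraries lay near 3 times the mESC level, and the rises were 1.61 ± 0.06, 1.80 ± 0.06 and 1.69 ± 0.06 (adjusted p = 4e-10, 1.5e-10 and 2.5e-10). Ldhb, which favours lactate use, stood at 145, 143 and 140 TPM in mESC, 202, 196 and 187 in T+, 149, 149 and 146 in SOX17+/T+ and 104, 92.5 and 104 in SOX17+. T+ was the highest group and SOX17+ the lowest, with no overlap between any groups. Ldhb rose by 0.44 ± 0.04 from mESC to T+ (adjusted p = 6e-07), was 0.40 ± 0.04 lower in SOX17+/T+ than in T+ (2.3e-05) and 0.56 ± 0.04 lower again in SOX17+ (8.7e-07). Its difference of 0.05 ± 0.04 between SOX17+/T+ and mESC was not called as deposited and was called at 0.22 after median-of-ratios scaling and 0.40 after quantile normalization. The Ldhb share of both forms was 8.88% ± 0.26 in mESC, 4.17% ± 0.17 in T+, 2.81% ± 0.15 in SOX17+/T+ and 2.08% ± 0.22 in SOX17+.

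The pyruvate dehydrogenase kinases switch off pyruvate entry into the citric acid cycle, and the members Pdk1 and Pdk3 changed little. Other forms of these kinases are only counted, within a list given below. Pdk1, a HIF target in many cells, stood at 53.6, 51.4 and 52.2 TPM in mESC, 50.3, 41.3 and 37.8 in T+, 53.9, 44.3 and 40.5 in SOX17+/T+ and 55.7, 48.9 and 46.9 in SOX17+. T+ lay below mESC without overlap, the other sorted groups overlapped mESC, and the change of -0.28 ± 0.11 in T+ (adjusted p = 0.033) was not called under 9 of the alternatives and was 0.0025 under quantile normalization. Pdk3 was between 47.8 and 49.7 TPM in mESC, 56.3 and 69.4 in T+, 54.7 and 63.6 in SOX17+/T+ and 51.2 and 57.8 in SOX17+. It rose by 0.36 ± 0.07 in T+ (adjusted p = 0.00054) and 0.28 ± 0.07 in SOX17+/T+ (0.003). The change of 0.16 ± 0.07 in SOX17+ was not called as deposited (adjusted p = 0.065) and was called at 0.32 after median-of-ratios scaling and 0.42 after quantile normalization. The Pdk1 share of the pair was 51.8% ± 0.16 in mESC and 40.6% ± 1.3, 43.5% ± 2.0 and 48.1% ± 0.91 in T+, SOX17+/T+ and SOX17+.

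**Figure D3:**
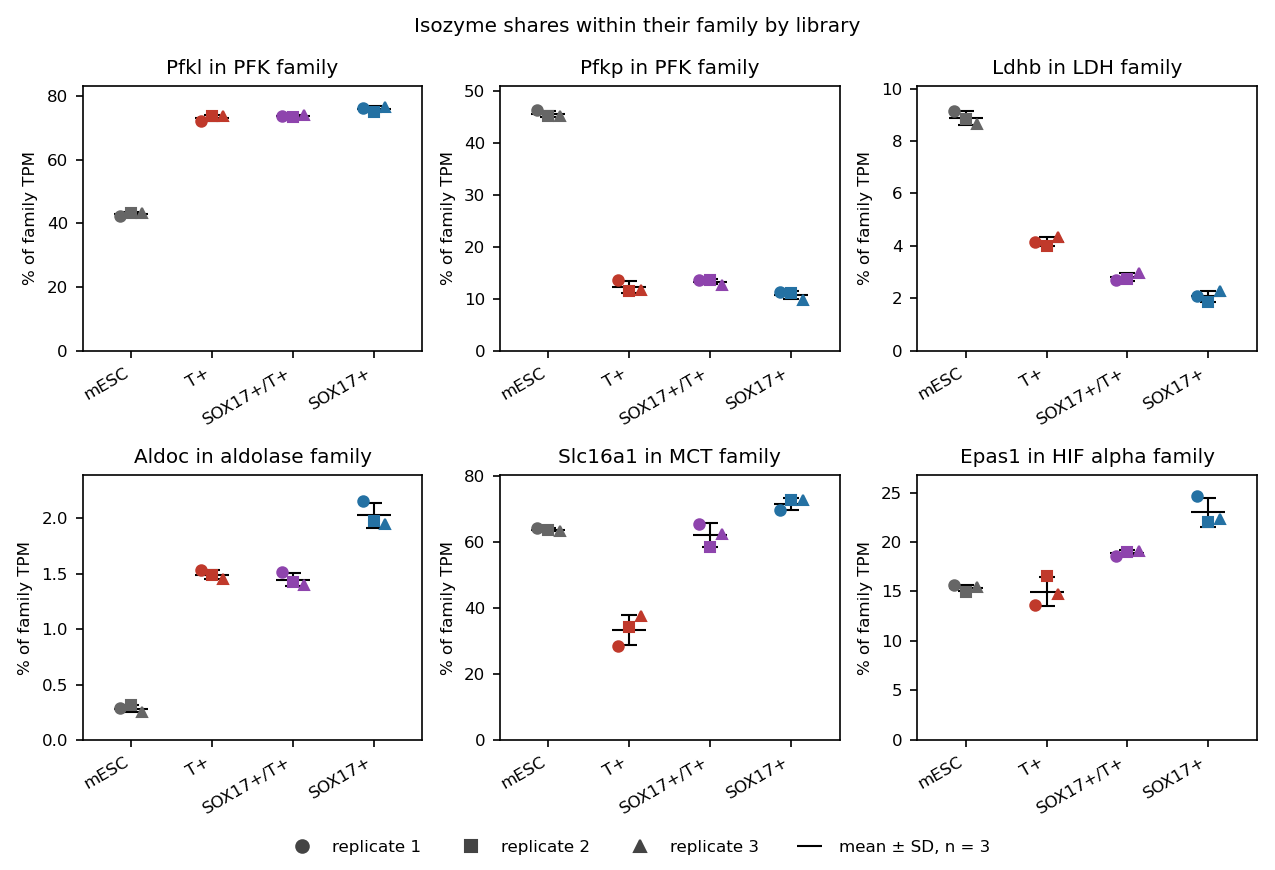
Share of the family TPM taken by 6 isozymes in each library (points, shaped by replicate number) with the group mean and SD as bars. Pfkl and Pfkp are nearly level in mESC, and Pfkl is far above Pfkp in the sorted cells. The Ldhb share falls at each step to SOX17+, and the Slc16a1 share dips in T+.

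The lactate transporters differed in where along the groups their largest rise lay, and the order of these sorted groups is not known to be an order in time. Slc16a1 (ENSMUSG00000032902.1, chromosome 3, 104638668 to 104658462) encodes MCT1, which carries lactate and pyruvate in either direction. It stood at 85.9, 84.5 and 87.5 TPM in mESC, 149, 153 and 157 in T+, 710, 608 and 613 in SOX17+/T+ and 1217, 1153 and 1177 in SOX17+. No groups overlapped, and the step from T+ to SOX17+/T+ was the largest. The changes were 0.82 ± 0.05 from mESC to T+ (adjusted p = 2.7e-09), 2.06 ± 0.05 from T+ to SOX17+/T+ (1.4e-10) and 0.88 ± 0.05 from there to SOX17+ (4.2e-08). As TPM means, SOX17+ had 13.7 times the Slc16a1 of mESC and 7.73 times that of T+. Slc16a3 (ENSMUSG00000025161.16, chromosome 11, 120948480 to 120960868) encodes MCT4, the exporter of strongly glycolytic cells and a HIF target. Its libraries stood at 47.8, 48.4 and 50.4 TPM in mESC, 374, 294 and 261 in T+, 372, 432 and 367 in SOX17+/T+ and 530, 432 and 439 in SOX17+. Most of its rise over mESC was also seen in T+, at 2.62 ± 0.13 (adjusted p = 5.4e-09), and T+ overlapped SOX17+/T+. SOX17+ lay above T+ by 0.60 ± 0.13 (adjusted p = 0.0021), while SOX17+/T+ differed from T+ by 0.34 ± 0.13, which was not called (0.065) and was called with median-of-ratios scaling (0.036). The Slc16a1 share of the pair was 63.8% ± 0.43 in mESC, 33.4% ± 4.6 in T+, 62.2% ± 3.6 in SOX17+/T+ and 71.8% ± 1.8 in SOX17+. Bsg, the chaperone that brings both transporters to the membrane, rose from a mean of 479 TPM in mESC to 1330 in T+ and 1718 in SOX17+/T+, by 1.47 ± 0.09 and 1.83 ± 0.09 (adjusted p = 2.8e-08 and 4.2e-09). Its mean in SOX17+ was 1513 TPM, between those of T+ and SOX17+/T+.

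Of the 7 hypoxia response genes 5 rose in every sorted group: Bnip3, Egln1, Egln3, Ndrg1 and Ddit4. Bnip3, a mitophagy receptor, stood at 56.5, 50.3 and 56.5 TPM in mESC, 278, 203 and 184 in T+, 305, 237 and 184 in SOX17+/T+ and 273, 237 and 189 in SOX17+. The sorted groups covered the same range, well above mESC, and the rises were 1.99 ± 0.22, 2.10 ± 0.22 and 2.06 ± 0.22 (adjusted p = 1.4e-05, 8.9e-06 and 1e-05). Egln1, the main oxygen-sensing prolyl hydroxylase, stood at 18.9, 20.0 and 18.4 TPM in mESC, 81.5, 65.9 and 53.7 in T+, 111, 90.6 and 68.5 in SOX17+/T+ and 89.9, 76.1 and 60.4 in SOX17+. It rose by 1.74 ± 0.20, 2.15 ± 0.20 and 1.91 ± 0.20 (adjusted p = 1.3e-05, 2.3e-06 and 6.1e-06), with overlap among the sorted groups. Egln3, a hydroxylase that HIF itself induces, was between 9.32 and 10.9 TPM in mESC, 47.6 and 59.0 in T+, 47.0 and 61.6 in SOX17+/T+ and 41.1 and 46.7 in SOX17+, with rises of 2.26 ± 0.10, 2.30 ± 0.10 and 2.04 ± 0.10.

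Ndrg1, a stress and differentiation gene (chromosome 15, 66929318 to 66969640), had the widest spread between libraries. It stood at 8.26, 10.2 and 9.61 TPM in mESC, 44.0, 34.4 and 21.8 in T+, 86.8, 68.9 and 38.2 in SOX17+/T+ and 50.7, 44.2 and 29.3 in SOX17+. SOX17+/T+ held the highest value at each replicate number, and the groups overlapped. The rises over mESC were 1.68 ± 0.34, 2.59 ± 0.34 and 2.00 ± 0.34 (adjusted p = 0.0013, 6.5e-05 and 0.0004). Ddit4, an inhibitor of mTORC1 signalling that hypoxia and other stresses induce, stood at 63.3, 66.1 and 67.3 TPM in mESC, 433, 418 and 548 in T+, 346, 329 and 437 in SOX17+/T+ and 196, 195 and 253 in SOX17+. It stood highest in T+ and stepped down towards SOX17+, which did not overlap the other groups. Ddit4 rose over mESC by 2.80 ± 0.14 in T+ (adjusted p = 1e-08) and 1.68 ± 0.14 in SOX17+ (7.6e-07), and was 1.12 ± 0.14 lower in SOX17+ than in T+ (6.5e-05). The sum of the dissociation stress genes went the other way between mESC and the sorted libraries, and its part in the Ddit4 values was not tested.

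Vegfa, the angiogenic growth factor, followed another course. Its libraries stood at 41.7, 46.6 and 42.5 TPM in mESC, 29.6, 30.2 and 32.7 in T+, 50.5, 44.3 and 50.5 in SOX17+/T+ and 53.3, 49.2 and 56.8 in SOX17+. T+ lay below all other libraries, SOX17+ lay above mESC, and SOX17+/T+ overlapped both of these. Vegfa fell by 0.49 ± 0.07 from mESC to T+ (adjusted p = 1.6e-05) and was higher than in T+ by 0.63 ± 0.07 in SOX17+/T+ (1.5e-05) and 0.76 ± 0.07 in SOX17+ (6.8e-07). The change of 0.15 ± 0.07 between SOX17+/T+ and mESC was not called as deposited and was called at 0.32 after median-of-ratios scaling and 0.43 after quantile normalization. The 8 endothelial markers, among them the VEGF receptors Kdr and Flt1, summed to 46.4 to 48.9 TPM in mESC and 47.8 to 51.3 in T+. The sums were 98.7 to 116 in SOX17+/T+ and 151 to 171 in SOX17+, and no marker was at 0 in all libraries of a group. Flt1 means rose from 11.2 TPM in T+ to 62.7 in SOX17+/T+ and 86.7 in SOX17+. Kdr went the other way, at 27.9, 22.2 and 18.6 TPM, and Etv2 was also highest in T+ among the sorted groups. Pecam1 was highest in mESC, at 30.3 TPM. The part of these markers in the Vegfa values was not tested. Ankrd37, a HIF target in several cell types whose window holds ACGTG 2 times, lay between 4.75 and 6.66 TPM in all 12 libraries and was not called in any of the 6 comparisons, although quantile normalization gave a called rise of 0.26 in SOX17+ over mESC (adjusted p = 0.026).

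**Figure D4:**
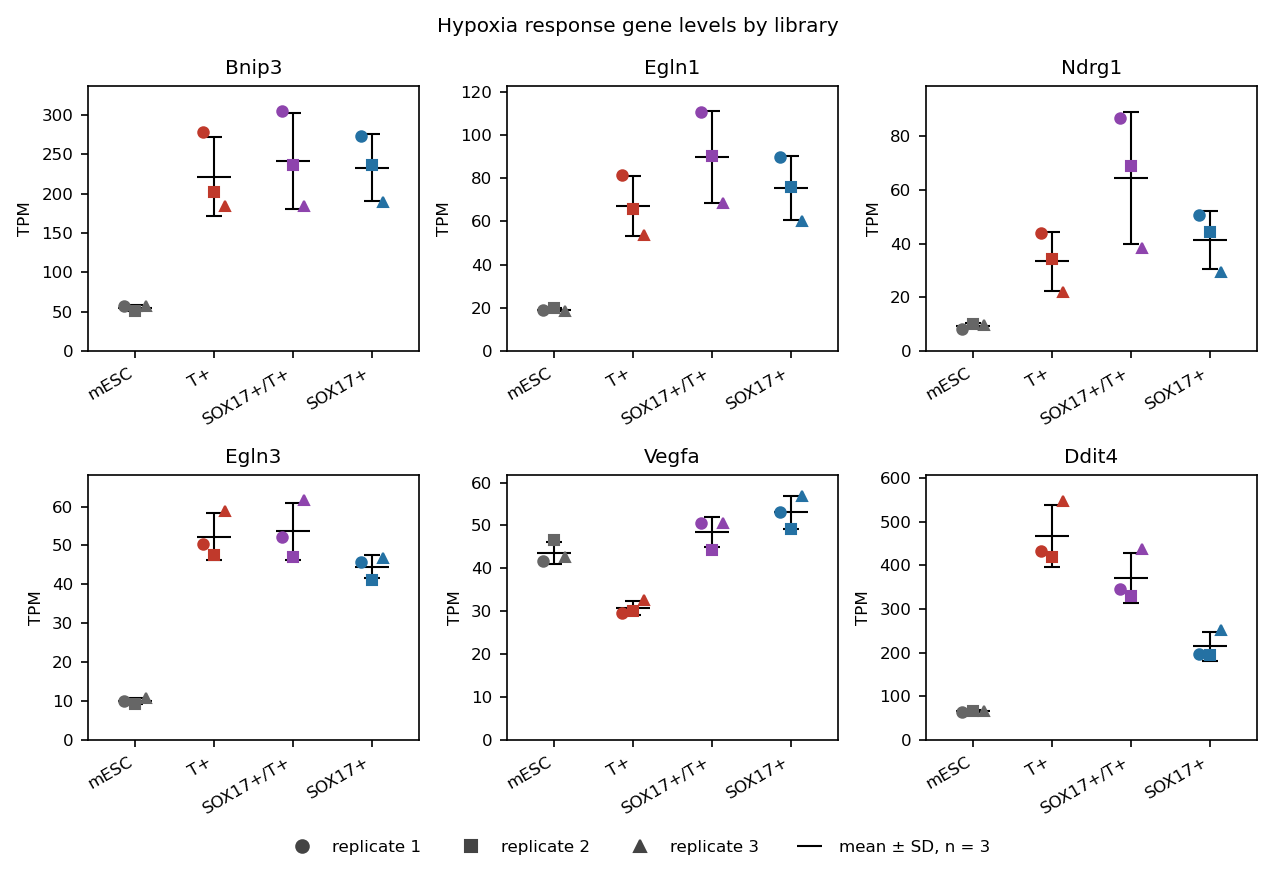
TPM of 6 hypoxia response genes in each library (points, shaped by replicate number) with the group mean and SD as bars. Bnip3, Egln1 and Ndrg1 have replicate 1 highest and replicate 3 lowest in each sorted group, while Egln3, Vegfa and Ddit4 have replicate 3 highest.

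The transcripts of Hif1a and Epas1, the 2 HIF alpha subunits among the members, were present in every group. Hif1a, the broadly expressed subunit, stood at 74.0, 75.5 and 70.4 TPM in mESC, 82.1, 83.3 and 81.9 in T+, 73.1, 76.0 and 82.1 in SOX17+/T+ and 83.0, 82.4 and 91.5 in SOX17+. SOX17+/T+ overlapped mESC, and the called rises were 0.17 ± 0.05 in T+ (adjusted p = 0.0073) and 0.22 ± 0.05 in SOX17+ (0.0011). The change of 0.07 ± 0.05 between SOX17+/T+ and mESC was called at 0.24 after median-of-ratios scaling and 0.42 after quantile normalization. Epas1 (ENSMUSG00000024140.9, chromosome 17, 86753907 to 86833410) encodes HIF-2 alpha, the form best known from endothelium. It stood at 13.7, 13.3 and 12.8 TPM in mESC, 13.0, 16.5 and 14.2 in T+, 16.7, 17.9 and 19.4 in SOX17+/T+ and 27.2, 23.3 and 26.2 in SOX17+. T+ overlapped mESC, and SOX17+ lay above all other libraries, by 0.77 ± 0.08 over T+ (adjusted p = 4.7e-06) and 0.48 ± 0.08 over SOX17+/T+ (0.00059). The change of 0.12 ± 0.08 from mESC to T+ was not called as deposited and was called at 0.26 after median-of-ratios scaling (adjusted p = 0.0094) and at 0.26 after quantile normalization (0.0077). The step of 0.29 ± 0.08 from T+ to SOX17+/T+ was called (adjusted p = 0.021) and lost the call under 6 alternatives, among them leaving out T+ replicate 1 or 3 or SOX17+/T+ replicate 2 or 3 (0.075 without SOX17+/T+ replicate 3). The Epas1 share of the Hif1a and Epas1 sum was 15.4% ± 0.32 in mESC, 15.0% ± 1.5 in T+, 18.9% ± 0.26 in SOX17+/T+ and 23.0% ± 1.5 in SOX17+. Hif3a, a further alpha subunit, is not in this sum and is given below. The endothelial marker sums given with Vegfa rose over the same groups, although not every marker did, and the part of these markers was not tested.

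Between the sorted groups the transporters separated from the enzymes. From T+ to SOX17+, 8 of 37 identifiers rose and 11 fell, where 25.4% of all tested genes rose and 29.0% fell. The risers were the 4 transporters, Epas1, Vegfa, Pfkfb4 and Hk1, and none of the 8 lower glycolysis enzymes was among them: 5 of the 8 were called lower. The share of members called was close to that of all genes in both directions. Of the 11 that fell, Ddit4, Pgam2, Eno3, Pfkfb3, Eno1 and Ldhb kept the call in every alternative without a block, while Pfkm, Eno2, Aldoa, Pkm and Pdk3 lost it in some. These 5 were small changes, from -0.14 ± 0.05 for Pkm to -0.43 ± 0.16 for Eno2, and the count of members that fell was 6 without T+ replicate 1, 7 without T+ replicate 2 and 6 without SOX17+ replicate 3. Hk1, higher by 0.25 ± 0.08, lost its call without T+ replicate 3 (adjusted p = 0.074).

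**Figure D5:**
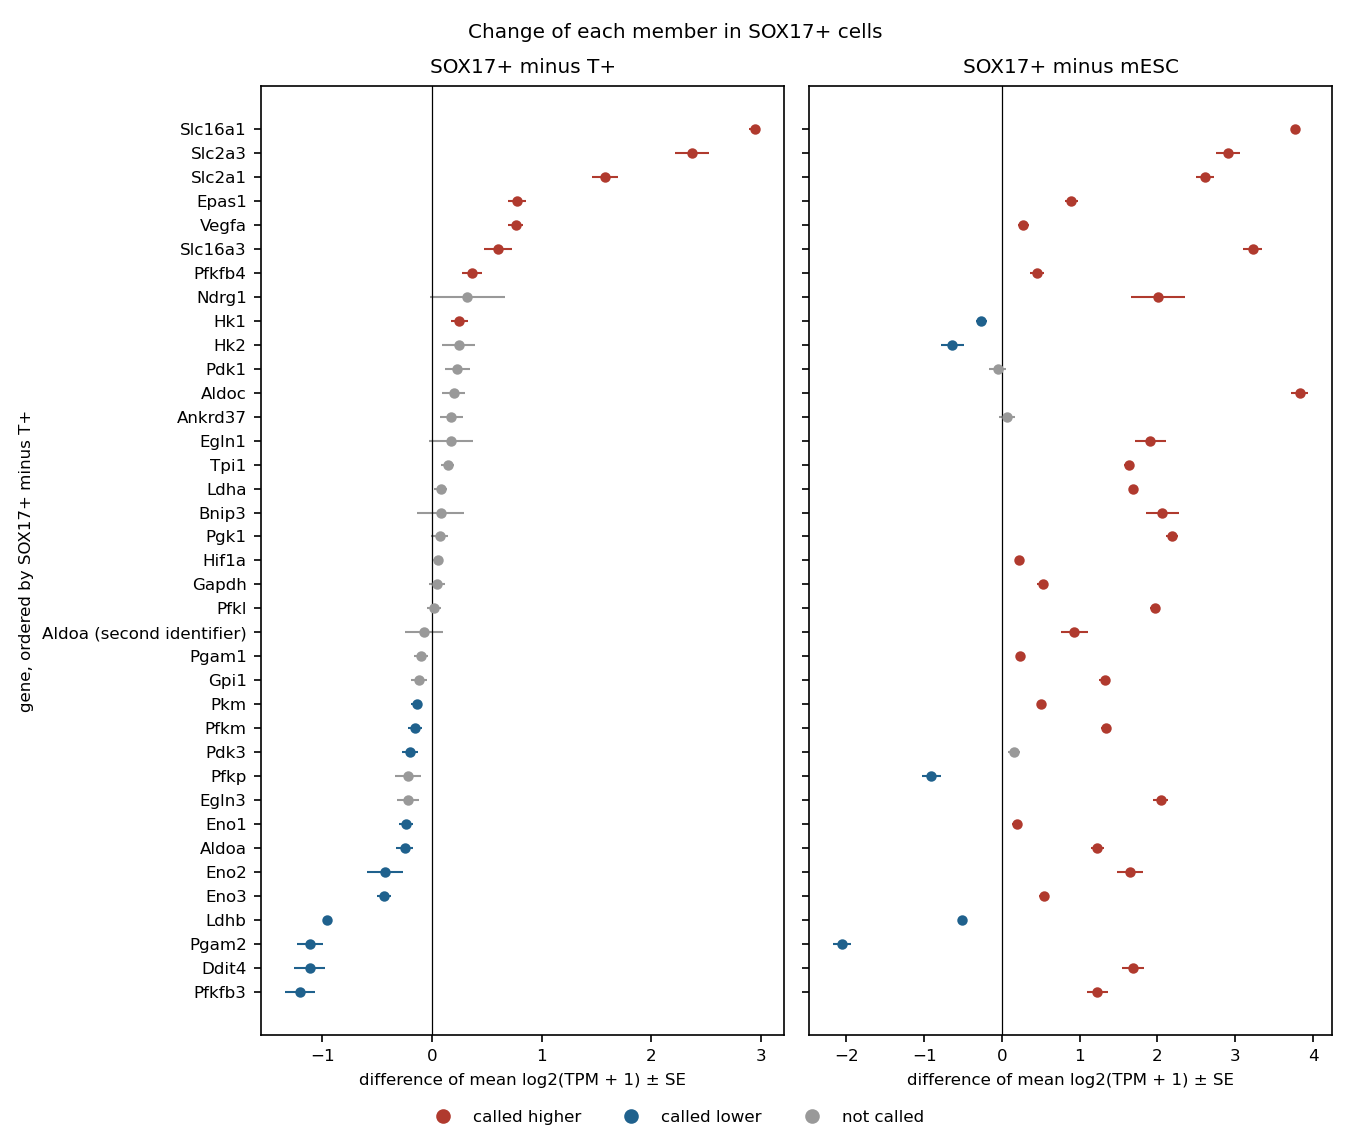
Difference of mean log2(TPM + 1) ± SE for the 37 identifiers between SOX17+ and T+ (left) and between SOX17+ and mESC (right), both in the order of the left panel, with called rises in red, called falls in blue and uncalled changes in grey. Slc16a1, Slc2a3 and Slc2a1 lead on the left, and Pfkfb3, Ddit4 and Eno2 are lower than in T+ while higher than in mESC.

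From SOX17+/T+ to SOX17+, 6 rose and 10 fell, where 19.8% of all tested genes rose and 16.8% fell. Slc2a1, Slc2a3, Slc16a1, Epas1 and Pfkfb4 rose under every alternative without a block, and the rise of Hif1a, 0.15 ± 0.05, did not hold under 7 of them. Among the 10 that fell, the changes of Pfkfb3 (-1.07 ± 0.14), Pgam2 (-0.99 ± 0.12), Eno2 (-0.85 ± 0.16), Ddit4 (-0.79 ± 0.14), Ldhb (-0.56 ± 0.04) and Eno3 (-0.48 ± 0.07) kept the call throughout. Those of Pfkp (-0.36 ± 0.12), Aldoa (-0.28 ± 0.08), Gpi1 (-0.23 ± 0.07) and Pkm (-0.17 ± 0.05) did not, and 6 members fell when SOX17+/T+ replicate 1 or SOX17+ replicate 3 was left out.

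From T+ to SOX17+/T+, 6 rose and 1 fell, where 12.6% of all tested genes rose and 15.8% fell. Slc2a1, Slc2a3, Slc16a1 and Vegfa rose and Ldhb fell under every alternative without a block, while Epas1 and Ldha (0.19 ± 0.06, adjusted p = 0.039) lost their calls in some. Libraries of these groups that share a replicate number varied together, and with the number as a block and these 6 libraries alone 13 members rose and 4 fell, where 14.3% and 17.8% of all tested genes did. The added rises were Ndrg1 (0.91, adjusted p = 0.00036), Egln1 (0.41, 0.001), Gapdh (0.17, 0.0034), Tpi1 (0.14, 0.0048), Pgk1 (0.21, 0.01), Gpi1 (0.11, 0.016) and Hk2 (0.19, 0.023). The added falls were Ddit4 (-0.33, 0.00036), Pfkm (-0.16, 0.017) and Eno1 (-0.12, 0.019). Without SOX17+/T+ replicate 3, 12 members rose and 4 fell with no block. T+ kept its replicate 3 in that fit, and libraries with this number tended to be lowest, as described below.

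Across the 3 sorted groups, Slc2a1, Slc2a3, Slc16a1 and Epas1 were called higher at both steps and Ldhb lower at both. For 17 of 37 identifiers the SOX17+/T+ mean lay between the T+ and SOX17+ means, for 16 it lay above both and for 4 (Pfkm, Aldoc, Pfkfb4 and Hif1a) below both. The 16 included Gapdh, Pgk1, Ldha, Bnip3, Egln1 and Ndrg1. None of the 37 was called above both or below both, and 14 had no call among the sorted groups. With the replicate block over all 12 libraries, Gapdh was called above T+ (0.17, adjusted p = 0.014) and above SOX17+ (SOX17+ changed by -0.13, 0.04), and Ldha also stood above both (SOX17+ changed by -0.11, 0.038). Without SOX17+/T+ replicate 3, Gapdh, Pgk1, Ndrg1, Eno2 and Gpi1 were called above both groups and Pfkfb4 and Hif1a below both. This fit kept replicate 3 in T+ and SOX17+. Replicate 3 was the lowest library of each sorted group for Gapdh, Pgk1, Ndrg1, Eno2 and Gpi1, and leaving it out raised only their SOX17+/T+ means. Pfkfb4 and Hif1a were highest in replicate 3 of SOX17+/T+, and leaving it out lowered those means.

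The libraries numbered 3 tended to be lowest. In 21 of 37 identifiers replicate 3 was the lowest library in all 3 sorted groups, a position that 8.78% of all tested genes held. They included both glucose transporters, Gpi1, Pfkl, Aldoa, Aldoc, Tpi1, Gapdh, Pgk1, Pkm and Ldha among the enzymes, and Bnip3, Egln1 and Ndrg1. Replicate 1 was the highest in all 3 groups for 15 of 37, against 12.4% of all tested genes. Pfkfb4, Egln3, Vegfa and Ddit4 had replicate 3 highest in all 3 groups, 4 of 37 against 9.19%. The labels do not say what a number stands for.

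Other genes of glucose use were counted from further lists. In the comparisons with mESC these counts stand beside the shares of all tested genes, of which 34.5% rose and 49.5% fell in T+, 34.9% and 50.3% in SOX17+/T+ and 35.4% and 50.0% in SOX17+. Of 15 tested further isozymes and regulators, 7 rose and 5 fell in T+, 8 rose and 4 fell in SOX17+/T+ and 7 rose and 4 fell in SOX17+, all against mESC. Hkdc1, a further hexokinase, was at 0.286, 0.242 and 0.337 TPM in mESC, 0.411, 0.375 and 0.551 in T+, 3.90, 3.10 and 2.56 in SOX17+/T+ and 16.3, 13.9 and 15.3 in SOX17+. It did not overlap between groups and was 3.48 ± 0.11 higher in SOX17+ than in T+ (adjusted p = 3.6e-11), and with it counted the Hk2 share of hexokinase in SOX17+ was 58.9% in place of 70.7%. Tigar, a phosphatase that lowers fructose 2,6-bisphosphate, fell from a mean of 42.2 TPM in mESC to 6.46, 9.16 and 9.62 TPM in T+, SOX17+/T+ and SOX17+, and Pgm2, a phosphoglucomutase, rose from 24.6 to 146, 141 and 125 TPM.

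Of the 12 genes of pyruvate dehydrogenase and mitochondrial pyruvate entry, 8 fell in each sorted group against mESC, where 49.5% to 50.3% of all tested genes fell, and 3, 4 and 3 rose in T+, SOX17+/T+ and SOX17+. Mpc1, a subunit of the mitochondrial pyruvate carrier, was at 43.3, 44.8 and 41.2 TPM in mESC, 8.25, 7.62 and 8.57 in T+, 5.18, 5.13 and 5.13 in SOX17+/T+ and 4.49, 4.98 and 5.24 in SOX17+. Every sorted library was far below mESC, with falls of 2.27 ± 0.06, 2.84 ± 0.06 and 2.90 ± 0.06 (adjusted p = 1.2e-12, 1.4e-13 and 1.1e-13). Pdhb and Pdhx, an enzyme subunit and a structural subunit of the complex, fell too, Pdhb from 147 TPM to 81.8, 77.8 and 80.8 TPM. Pdha1, the subunit that the PDK kinases phosphorylate, did not go down with them: its mean was 431 TPM in mESC, and every sorted library lay above every mESC library. It climbed from T+ (498 TPM) through SOX17+/T+ (555) to SOX17+ (668), 0.42 ± 0.03 from T+ to SOX17+ (adjusted p = 2.7e-08).

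The pentose phosphate path, which branches off at glucose 6-phosphate, had 5 of 7 genes higher and none lower in SOX17+ than in T+, where 25.4% of all tested genes were higher and 29.0% lower. G6pdx, its entry enzyme, was at 51.5, 49.0 and 48.0 TPM in T+ and 76.5, 75.9 and 79.5 in SOX17+, without overlap and 0.63 ± 0.04 apart (adjusted p = 3.3e-08), and Rpia and Taldo1 rose by 0.68 ± 0.07 and 0.52 ± 0.04. Against mESC, 2 rose and 3 fell in T+, 3 and 3 in SOX17+/T+ and 4 and 3 in SOX17+, beside the all-gene shares given above. Tkt rose in all 3, from 253 TPM to 504, 535 and 526, and Taldo1 fell in all 3, from 289 TPM to 110, 130 and 157. Of 5 tested gluconeogenesis genes, 3 fell in every comparison with mESC while 2, 2 and 1 rose: Pcx, pyruvate carboxylase, fell from 15.2 TPM to 12.5, 8.16 and 5.09 in T+, SOX17+/T+ and SOX17+, and G6pc3, a ubiquitous glucose 6-phosphatase, rose from 15.0 to 35.1, 36.5 and 52.8 TPM.

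Of 9 genes of the machinery around HIF, 4 were higher and 4 lower than in mESC in T+ and in SOX17+/T+, and 3 were higher and 5 lower in SOX17+, counts near the all-gene shares. Cited2, which competes with HIF alpha for its coactivators and is itself induced by HIF, was at 57.4, 55.5 and 44.0 TPM in mESC, 194, 185 and 205 in T+, 153, 151 and 170 in SOX17+/T+ and 105, 95.2 and 110 in SOX17+. It stepped down from T+ to SOX17+ with no overlap, 0.91 ± 0.09 in all (adjusted p = 3.7e-06). Arnt, the partner subunit, fell from 68.1 TPM in mESC to 47.4 in T+ and 48.7 in SOX17+. Hif3a, a further HIF alpha subunit, had means of 2.00 TPM in mESC, 9.92 in T+, 10.4 in SOX17+/T+ and 9.59 in SOX17+. Every sorted library stood above every mESC library, and the rise in SOX17+/T+ was 1.92 ± 0.12 (adjusted p = 2.7e-09).

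Of 24 tested other hypoxia-inducible genes, 11, 12 and 11 rose and 8, 9 and 9 fell against mESC in T+, SOX17+/T+ and SOX17+, where 34.5%, 34.9% and 35.4% of all tested genes rose and 49.5%, 50.3% and 50.0% fell. The medians were 0.13, 0.24 and 0.18, beside all-gene medians of -0.17, -0.19 and -0.18 and member medians of 0.98, 1.33 and 1.22. Those that fell included Lox, a collagen cross-linking enzyme, with a mean of 247 TPM in mESC and at most 0.155 TPM as a sorted group mean. Lox is also on the feeder fibroblast list, whose sums are given above, and the part of feeder cells in these values was not tested. Among the sorted groups, P4ha1, a collagen prolyl hydroxylase, was at 95.3, 84.0 and 75.6 TPM in T+, 152, 144 and 108 in SOX17+/T+ and 175, 169 and 143 in SOX17+. It was higher than in T+ by 0.65 ± 0.13 in SOX17+/T+ (adjusted p = 0.0033) and 0.93 ± 0.13 in SOX17+ (1.0e-04), and its replicate 3 was lowest in each of these groups. Bhlhe40, a transcriptional repressor, ran the other way, at 38.1, 40.5 and 51.7 TPM in T+ and 15.6, 16.3 and 22.7 in SOX17+, a fall of 1.22 ± 0.17 (adjusted p = 1.1e-04).

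Of 7 regulators from the MYC and ChREBP families, which read the CACGTG letters shown above, 5 fell in T+, 5 in SOX17+/T+ and 6 in SOX17+ against mESC, where 49.5%, 50.3% and 50.0% of all tested genes fell, and 1 rose in T+. Mycn was at 158, 151 and 162 TPM in mESC, 52.3, 49.8 and 44.6 in T+, 37.1, 32.0 and 31.4 in SOX17+/T+ and 18.9, 14.9 and 14.5 in SOX17+. It fell at every step without overlap, by 1.67 ± 0.09 in T+ and 3.22 ± 0.09 in SOX17+ against mESC (adjusted p = 2.1e-09 and 3.0e-12). Myc fell from 82.4 TPM to 34.0, 37.3 and 31.2 TPM. Mitochondrially encoded transcripts, for comparison, made up 4.16% ± 0.17 of TPM in mESC and 6.53% ± 0.26, 6.51% ± 0.40 and 5.98% ± 0.24 in T+, SOX17+/T+ and SOX17+, and rescaling without them left 219 of the 222 calls on the same side of the threshold.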

How the data were processed

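The authors deposited 1 table of TPM per gene for the 12 libraries (poly(A) RNA, stranded kit and paired-end reads, per the labels' protocols). Per the submitters' processing notes, cutadapt, STAR and StringTie were used with the mm10 and GRCm38 builds; for versions, strand setting and annotation release the sources used here give nothing. Each library sums to 1000000 TPM, so depth is unknown and no counting interval can be given. Groups came from the labels, and replicate numbers from the same labels.

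From the table, 282 empty cells were set to 0 and 11 genes split over several lines were summed, giving 54446 identifiers. Identifiers with at least 1 TPM in at least 3 libraries were tested on log2(TPM + 1) with limma 3.58.1 in R 4.3.3 (all 4 groups in one fit, eBayes with trend and robust), in 6 pairwise comparisons, with Benjamini-Hochberg adjustment over all 16097 tested identifiers and a threshold of 0.05. The fit was tested on simulated data. Isozyme shares are percentages of family TPM. Promoter windows came from RefSeq (GRCm38.p6), and bases in GENCODE M21 exons were left out of the printed stretches.

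The genes, lists and tests were chosen with earlier results of these data known. All 36 genes are named; from each further list, up to 3 called genes per comparison with the largest change and at least 10 TPM in the higher group could be named, and copies of a member where they reached 1 TPM. Deviations from the group means correlated between T+ and SOX17+/T+ libraries of the same number (r = 0.204, 0.149 and 0.242 across genes, which are not independent replicates), all above 0.1, so these groups were also fitted as pairs; other pairs of groups did not reach this in every pair. Alternatives changed the pseudocount (0.1), the filter (none, or 5 TPM), the scaling, the variance model, the samples in the fit, the copies, the replicate block and each replicate in turn.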

Additional observations from a re-analysis of the deposited data

How the results depend on the processing

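The pseudocount of 0.1 and the added copies changed none of the 222 calls, and the filter of 5 TPM changed none of the 204 it could give. Without a filter, and with eBayes without trend and robust, 7 members were lower in SOX17+ than in T+, in place of 11. With only the 2 compared groups in the fit, 8 calls, all between sorted groups, were lost and 1 was gained. With the replicate block over all 12 libraries 11 members were higher and 3 lower in SOX17+/T+ than in T+, and with the replicate block on these 2 groups alone, an alternative chosen after seeing the data, 13 and 4, in place of 6 and 1. Other counts of members stayed within 1.5 times under the block. Quantile normalization turned the sign of Pfkfb4 in SOX17+/T+ against mESC (0.23), of Eno1 in SOX17+ (-0.14) and SOX17+/T+ (-0.11) against mESC, and of Pdk1 in T+ against mESC (0.0025); the cause was not tested.

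Leaving out 1 replicate at a time gave 28 to 30 members higher and 5 lower in SOX17+ than in mESC, 28 higher and 5 to 6 lower in T+ than in mESC, and 27 to 28 higher and 4 to 5 lower in SOX17+/T+ than in mESC. It gave 7 to 10 higher and 6 to 13 lower in SOX17+ than in T+, 4 to 12 higher and 1 to 4 lower in SOX17+/T+ than in T+, and 5 to 7 higher and 6 to 14 lower in SOX17+ than in SOX17+/T+. The count lower in SOX17+/T+ than in T+ was 2 without T+ replicate 3 and 2 without SOX17+/T+ replicate 1.

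With all isozymes counted, the Hk2 share in SOX17+ was 58.9%, and the Pdk1 share was 47.2%, 37.4%, 40.2% and 44.6% in mESC, T+, SOX17+/T+ and SOX17+. With copies added, in the same order of groups, the Pgam2 share was 0.402%, 0.132%, 0.112% and 0.0211% (0.586%, 0.192%, 0.164% and 0.0308% without them) and the Eno3 share 1.28%, 1.87%, 2.05% and 1.59% (1.76%, 2.58%, 2.87% and 2.25%). These follow from the larger family sums. TPM hides depth, so the precision of low genes such as Pgam2 and Pfkfb4 rests on 3 libraries a group.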
